A study of Arabidopsis thaliana with 9 samples.

Results

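AAR2 and 9 genes of its partner proteins in the U5 small nuclear ribonucleoprotein (U5 snRNP) were followed at the mRNA level in Arabidopsis thaliana seedlings carrying the aar2-1 or the aar2-2 mutation and in wild-type (WT) seedlings. The 10 genes were taken by locus code out of 22903 genes listed per library: AAR2 itself, PRP8A and PRP8B, BRR2A and BRR2B, SNU114 and its copy AT5G25230, STA1, PRP3 and YLS8. They were named by role, but they were selected on the CPM values of the mutants and WT in these same libraries, which were known at the time. Their differences from WT are therefore given as values with their errors and without p-values. Each genotype was represented by 3 libraries, which the submitters describe as biological replicates. They came from seedlings 14 days old, kept in long days of 16 h light and 8 h dark. All libraries shared this age, medium and light regime, and no treatment is named. The lesion in each allele and the parental accession are not given in the sources used here.

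The spliceosome removes introns, and its U5 snRNP carries the protein PRP8, which lies at the catalytic centre, together with the helicase BRR2 and the GTPase SNU114. In yeast, Aar2 binds Prp8 while the U5 particle is being assembled and is then exchanged for Brr2. U5 joins the U4/U6 particle as the tri-snRNP, in which PRP3 holds U4/U6 RNA, a PRP6-type protein (STA1 in Arabidopsis) bridges the particles, and a small thioredoxin-like protein of the DIM1 family (YLS8) accompanies U5. PRP8, BRR2 and SNU114 each have a second gene copy in Arabidopsis, which makes it possible to ask how mRNA is divided between the copies.

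The unit throughout is CPM, in which every library is scaled to the same total over genes. The aar2-1 libraries held 29163704 to 31304548 reads over genes, the aar2-2 libraries 32392645 to 35266334 and the WT libraries 24471217 to 27715504. Every mutant library was thus deeper than every WT library, and depth and genotype cannot be told apart by grouping libraries. Across genes, which are not independent replicates, Spearman's rho was 0.984 to 0.996 for the 9 library pairs within genotypes and 0.963 to 0.992 for the 27 pairs between them. The 3 green-tissue markers summed to 35180 to 36816, 32594 to 38539 and 33898 to 39662 CPM in aar2-1, aar2-2 and WT. The 4 root markers summed to 1.21 to 1.71, 1.74 to 1.88 and 1.19 to 2.86 CPM in aar2-1, aar2-2 and WT. Defining root transcripts were thus near 0 in all genotypes, far below the green-tissue markers. How much root the sampled material held was not tested. The 2 flower markers summed to at most 1.12, 0.907 and 0.399 CPM, and the 2 seed storage markers to at most 1.60, 0.822 and 2.35 CPM, in the same order.

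AAR2 (AT1G66510, TAIR10.1 chromosome 1, 24812793 to 24816620, plus strand, 13 introns) had 7.33, 5.49 and 5.30 CPM in aar2-1, 5.28, 4.36 and 4.11 CPM in aar2-2, and 7.64, 7.11 and 8.27 CPM in WT. All aar2-2 libraries lay below all aar2-1 and all WT libraries, whereas aar2-1 replicate 1 lay inside the WT range. The gap between the mutants was narrow, from 5.279 CPM in aar2-2 replicate 1 to 5.303 CPM in aar2-1 replicate 3. In these libraries 1 read is worth 0.0309 and 0.0319 CPM. The means were 6.04 ± 1.12 CPM in aar2-1, 4.58 ± 0.615 CPM in aar2-2 and 7.67 ± 0.584 CPM in WT (SD, n = 3 each), which is 0.787 and 0.597 times the WT mean. The log2 fold changes were -0.31 in aar2-1 and -0.64 in aar2-2 (SE 0.13 each), on the log2(CPM + 1) scale, which understates changes of low genes. These values rest on 145 to 228 reads per library. In seedling libraries, fewer cells that express a gene and less of its RNA per cell cannot be told apart. With the allele lesions not given, the level of AAR2 mRNA checks the labels only in part.

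**Figure D1:**
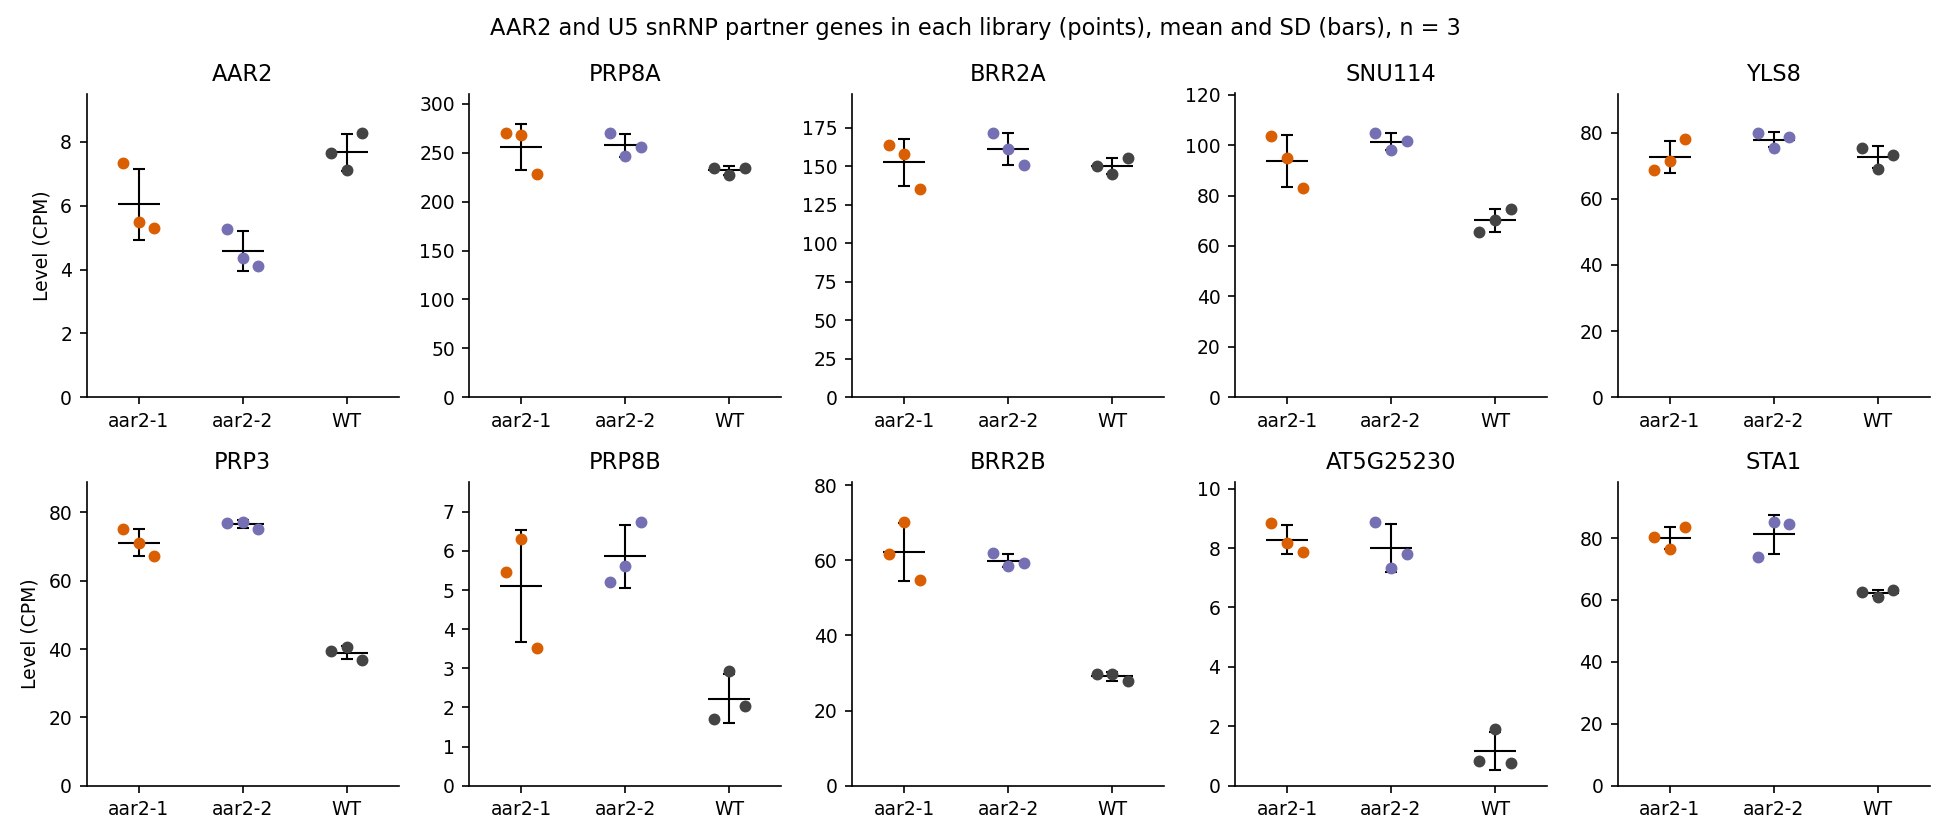
Level in CPM (vertical axes, each from 0) of the 10 genes in every library (points) of aar2-1, aar2-2 and WT (horizontal axis), with the mean and SD as bars (n = 3). PRP3, PRP8B, BRR2B, AT5G25230, SNU114 and STA1 lie above WT in all 6 mutant libraries, while AAR2 averages 6.04 CPM in aar2-1 and 4.58 CPM in aar2-2 against 7.67 CPM in WT.

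PRP8 is the largest protein of the U5 snRNP. Its main gene, PRP8A (AT1G80070, chromosome 1, 30117847 to 30127811, plus strand), had 269.8, 268.5 and 228.7 CPM in aar2-1, 270.1, 246.8 and 255.8 CPM in aar2-2, and 234.0, 227.0 and 234.6 CPM in WT. The aar2-2 libraries lay above the WT ones and aar2-1 replicate 3 lay among them; the log2 fold changes were 0.14 and 0.15 (SE 0.07 each). The second copy, PRP8B (AT4G38780, chromosome 4, 18101296 to 18111082, minus strand), had 5.46, 6.31 and 3.51 CPM in aar2-1, 5.22, 5.61 and 6.75 CPM in aar2-2, and 1.72, 2.92 and 2.03 CPM in WT. No mutant library overlapped a WT library, and the smallest gap was between 3.51 CPM in aar2-1 replicate 3 and 2.92 CPM in WT replicate 2. PRP8B averaged 5.09 ± 1.43 CPM in aar2-1, 5.86 ± 0.796 CPM in aar2-2 and 2.22 ± 0.626 CPM in WT (SD, n = 3), or 2.29 and 2.63 times WT. Its log2 fold changes were 0.91 and 1.10 (SE 0.19 each), from 42 to 81 reads per WT library and 110 to 238 per mutant library.

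Both PRP8 genes have 23 introns and their coding sequences are 88.9% identical over 6981 aligned bases. The same 100-base coding stretch of each, which lies within an exon of both, is shown to let the copies be compared base by base; it is at chr4:18110099-18110198 (minus strand) in PRP8B and at chr1:30118887-30118986 (plus strand) in PRP8A, and capitals mark the 10 bases that differ.
PRP8B: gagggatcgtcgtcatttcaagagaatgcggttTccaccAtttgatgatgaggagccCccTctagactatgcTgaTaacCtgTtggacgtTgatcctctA
PRP8A: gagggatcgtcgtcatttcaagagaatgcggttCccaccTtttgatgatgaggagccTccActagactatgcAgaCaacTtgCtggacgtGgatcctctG
The longest stretch identical in both copies was 53 bases, and 0.0700% of the 50-base words of the PRP8B mRNA occur in PRP8A.

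BRR2 is the helicase that unwinds U4 from U6 RNA when the spliceosome is activated. BRR2A (AT1G20960, chromosome 1, 7301599 to 7310271, minus strand) had 164, 158 and 135 CPM in aar2-1, 172, 161 and 151 CPM in aar2-2, and 150.5, 145 and 155 CPM in WT. The groups overlapped, with log2 fold changes of 0.02 and 0.10 (SE 0.08 each). BRR2B (AT2G42270, chromosome 2, 17604076 to 17611333, plus strand) had 61.7, 70.3 and 54.7 CPM in aar2-1, 62.0, 58.5 and 59.3 CPM in aar2-2, and 29.7, 29.7 and 27.8 CPM in WT. Every mutant library was far above every WT library. The means were 62.2 ± 7.81 CPM in aar2-1, 59.9 ± 1.80 CPM in aar2-2 and 29.1 ± 1.13 CPM in WT (SD, n = 3), or 2.14 and 2.06 times WT. The log2 fold changes were 1.07 and 1.02 (SE 0.09 each).

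The BRR2 copies differ more in gene structure than the PRP8 copies do: BRR2A has 4 introns and BRR2B has 1. Their coding sequences are 84.2% identical over 6504 aligned bases. A matched coding stretch is shown from chr2:17605133-17605232 (plus strand) in BRR2B and chr1:7309012-7309111 (minus strand) in BRR2A, with the 14 differing bases in capitals.
BRR2B: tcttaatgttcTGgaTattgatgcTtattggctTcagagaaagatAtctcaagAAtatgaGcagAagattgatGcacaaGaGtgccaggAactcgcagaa
BRR2A: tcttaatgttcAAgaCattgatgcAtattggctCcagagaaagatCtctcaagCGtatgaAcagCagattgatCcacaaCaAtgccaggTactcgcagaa
The longest identical stretch was 62 bases, and 0.379% of the 50-base words of BRR2B mRNA occur in BRR2A.

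SNU114 is a GTPase related to translation elongation factor G. The main gene (AT1G06220, symbol MEE5 in the annotation, chromosome 1, 1899951 to 1904897, plus strand, 11 introns) had 103, 94.7 and 82.9 CPM in aar2-1, 105, 98.0 and 101 CPM in aar2-2, and 65.6, 70.2 and 74.7 CPM in WT. No mutant library overlapped WT, and the means were 93.7 ± 10.3 CPM in aar2-1, 101 ± 3.41 CPM in aar2-2 and 70.2 ± 4.53 CPM in WT (SD, n = 3), which is 1.33 and 1.45 times WT. The log2 fold changes were 0.41 and 0.53 (SE 0.08 each).

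The copy AT5G25230 (chromosome 5, 8739545 to 8743880, plus strand, 10 introns, with a gene model marked as partial at its start) had the largest fold change of the 10 genes, although BRR2B and PRP3 differed from WT by more CPM. It had 8.83, 8.16 and 7.86 CPM in aar2-1, 8.89, 7.32 and 7.80 CPM in aar2-2, and 0.817, 1.91 and 0.762 CPM in WT. The lowest mutant library stood well above the highest WT library, and WT replicate 2 was apart from the other WT libraries. These levels come from 238 to 288 reads per mutant library, against 20, 53 and 21 reads in the WT libraries. The means were 8.28 ± 0.499 CPM in aar2-1, 8.00 ± 0.804 CPM in aar2-2 and 1.16 ± 0.649 CPM in WT (SD, n = 3), or 7.12 and 6.88 times WT. On the log2(CPM + 1) scale the fold changes were 2.14 and 2.09 (SE 0.18 each), which ranked 18 and 10 from the top of the 18838 genes tested.

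SNU114 and AT5G25230 are the most alike of the copies, with 96.6% identical coding bases over 2916 aligned. The matched stretches at chr5:8739859-8739958 in AT5G25230 and chr1:1900722-1900821 in SNU114 (plus strand in both) differ at 3 bases, in capitals, and show how little sequence separates reads of the copies.
AT5G25230: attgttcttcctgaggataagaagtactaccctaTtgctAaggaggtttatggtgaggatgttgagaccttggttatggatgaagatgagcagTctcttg
SNU114: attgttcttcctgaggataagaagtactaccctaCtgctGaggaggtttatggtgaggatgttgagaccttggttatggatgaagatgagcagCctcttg
The longest identical stretch was 203 bases, and 18.4% of the 50-base words and 4.54% of the 100-base words of AT5G25230 mRNA occur in SNU114. How reads that match both copies were counted is not given in the sources used here, so the division of reads within this pair is less certain than in the others. AT5G25230 held 8.49% to 9.34% of the pair's level per kilobase in aar2-1 and 7.51% to 8.44% in aar2-2, against 1.10% to 2.87% in WT, while SNU114 itself stood at 1.33 and 1.45 times WT.

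The remaining partners have no near copy among the 10 genes. PRP3 (AT1G28060, chromosome 1, 9778851 to 9782907, plus strand, also known as RDM16, a factor of RNA-directed DNA methylation) had 75.2, 70.9 and 67.2 CPM in aar2-1, 77.0, 77.3 and 75.1 CPM in aar2-2, and 39.5, 40.6 and 36.8 CPM in WT. The groups were widely separated, at 1.83 and 1.96 times the WT mean of 39.0 ± 1.93 CPM (SD, n = 3). The log2 fold changes were 0.85 and 0.96 (SE 0.06 each). STA1 (AT4G03430, symbol EMB2770, chromosome 4, 1516030 to 1520563, minus strand) had 80.2, 76.3 and 83.4 CPM in aar2-1, 74.0, 85.3 and 84.4 CPM in aar2-2, and 62.5, 61.1 and 63.1 CPM in WT. All mutant libraries were above WT, with log2 fold changes of 0.36 and 0.38 (SE 0.07 each). YLS8 (AT5G08290, chromosome 5, 2665899 to 2667261, plus strand) had 68.7, 71.5 and 78.1 CPM in aar2-1, 79.9, 75.2 and 78.6 CPM in aar2-2, and 75.4, 68.9 and 73.3 CPM in WT. Its aar2-1 and WT ranges overlapped, aar2-2 replicate 2 lay just under the highest WT library, and the log2 fold changes were 0.0033 and 0.10 (SE 0.07 each).

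All 10 genes passed the filter on low values, a mean of at least 1 CPM over the 9 libraries, as did 18838 of the 22903 listed. At an adjusted p-value under 0.05 (limma on log2(CPM + 1), Benjamini-Hochberg over all genes tested), 6 of the 10 were called in aar2-1, against 25.1% of all genes tested, and all 6 were higher, against 11.5% of all genes higher and 13.6% lower. They were PRP8B, BRR2B, SNU114, AT5G25230, STA1 and PRP3. In aar2-2, 7 of the 10 were called, against 21.5% of all genes. The same 6 were higher, against 12.1%, and AAR2 was lower, against 9.4%. Over all genes in aar2-2, 2276 were called higher and 1770 lower, whereas edgeR, which rescales the libraries by TMM, called 1941 higher and 2284 lower; the directions of the 7 called members were the same by both. The 6 were higher in both mutants, against 6.4% of all genes, and had every mutant library above every WT library, against 13.2% of all genes. As the genes were chosen with these values known, the counts describe the choice. The median log2 fold change of the 10 genes was 0.38 in aar2-1 and 0.45 in aar2-2, beside -0.0037 and 0.032 over all genes tested. Both mutants were compared with the same 3 WT libraries.

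**Figure D2:**
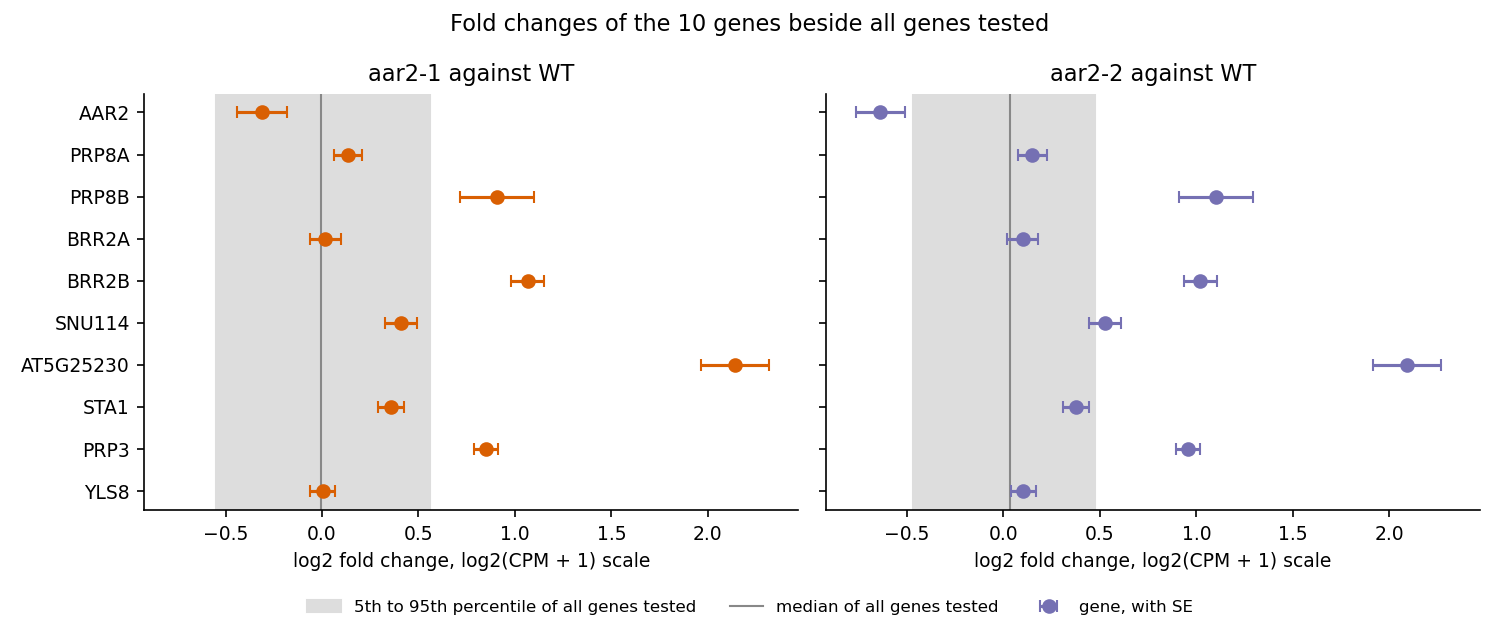
Log2 fold change on the log2(CPM + 1) scale (horizontal axis) of each of the 10 genes (rows, points with SE) in aar2-1 against WT (left) and aar2-2 against WT (right); the grey band spans the 5th to 95th percentile of all 18838 genes tested and the line is their median. PRP8B, BRR2B, AT5G25230 and PRP3 lie beyond the band in both mutants, from 0.85 for PRP3 in aar2-1 to 2.14 for AT5G25230 in aar2-1, and AAR2 lies below it in aar2-2 at -0.64.

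Between the alleles, aar2-2 against aar2-1, limma called 0 of the 10 genes at an adjusted p-value under 0.05, against 0.0212% of all genes. edgeR called 0 (0.0212% of all genes) and DESeq2 called 0 (2.16%). At an unadjusted p under 0.05 there was 1, AAR2, against 16% of all genes, with a log2 difference of -0.33 (SE 0.13). The log2 differences of the other 9 lay between -0.05 for AT5G25230 and 0.19 for PRP8B. Within aar2-1, replicate 3 was the lowest library for 8 of the 10 genes, all but STA1 and YLS8, for which it was the highest. Within WT, replicate 2 was the highest for PRP8B, BRR2B, AT5G25230 and PRP3. Without aar2-1 replicate 3, PRP8A in aar2-1 was called as higher (log2 fold change 0.21). Without aar2-1 replicate 1, AAR2 in aar2-1 was called as lower (-0.44). Each of these was called in only 1 of 18 fits, the main fit and its alternatives, and the genes were chosen with these values known.

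The division of each pair between its copies differed between mutants and WT. Per kilobase of mRNA, PRP8B made up 2.02 ± 0.411% of the pair in aar2-1, 2.33 ± 0.353% in aar2-2 and 0.996 ± 0.296% in WT. BRR2B made up 29.8 ± 1.77%, 27.9 ± 0.980% and 16.8 ± 0.960%, and AT5G25230 made up 8.80 ± 0.473%, 7.89 ± 0.491% and 1.77 ± 0.965%, in aar2-1, aar2-2 and WT (SD, n = 3 throughout). In no pair did the share in a mutant library overlap that in a WT library. The second copies were chosen with these values known. Each alone had every mutant library above every WT library, against 13.2% of all genes, so the shares in part restate those values. Shares in other gene pairs were not computed. The log2 ratio of the second copy to the main copy was higher than in WT by 1.05 in aar2-1 and 1.27 in aar2-2 for PRP8, by 1.07 and 0.94 for BRR2, and by 2.55 and 2.38 for SNU114.

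**Figure D3:**
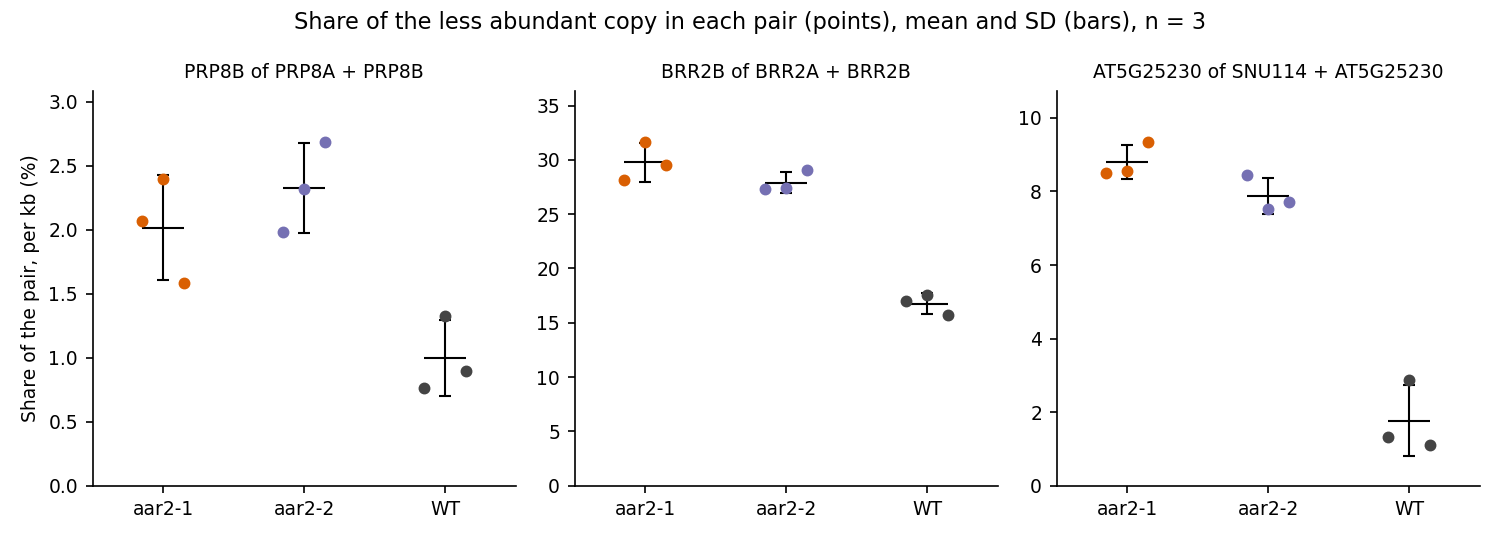
Share of the less abundant copy in the summed level per kilobase of its pair (vertical axes, percent, each from 0) in every library (points) of aar2-1, aar2-2 and WT (horizontal axis), with mean and SD (bars, n = 3). The share is larger in each mutant library than in any WT library for all 3 pairs, on average 2.02% and 2.33% against 0.996% for PRP8B, 29.8% and 27.9% against 16.8% for BRR2B, and 8.80% and 7.89% against 1.77% for AT5G25230.

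In CPM, a relative unit, the pairs differed in which copy had the larger mean difference from WT. Limma called neither PRP8A nor BRR2A in either mutant. For BRR2, the mean of BRR2B was 33.2 CPM above WT in aar2-1 and 30.9 CPM in aar2-2, while that of BRR2A was 2.22 and 10.9 CPM above. For SNU114 the larger part was in the main gene, 23.5 and 31.2 CPM above WT, against 7.12 and 6.84 CPM for AT5G25230. For PRP8 the second copy was 2.87 and 3.63 CPM above WT, beside 23.8 and 25.7 CPM for PRP8A, whose own aar2-1 libraries overlapped WT. Summed per kilobase, the BRR2 pair stood at 30.2 ± 3.01 CPM in aar2-1, 31.1 ± 1.65 CPM in aar2-2 and 25.1 ± 0.554 CPM in WT (SD, n = 3). The SNU114 pair stood at 28.7 ± 3.03, 30.8 ± 1.19 and 19.95 ± 1.27 CPM per kilobase, and the PRP8 pair at 34.7 ± 3.30, 35.1 ± 1.52 and 31.1 ± 0.481 CPM per kilobase, in the same order.

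Per kilobase of mRNA, the levels of the genes can be ordered. YLS8 was the highest in each genotype, at 57.6, 61.7 and 57.4 CPM per kilobase in aar2-1, aar2-2 and WT, followed by PRP8A at 34.0, 34.2 and 30.8. In aar2-1 the order went on with SNU114 (26.2) and PRP3 (24.3), whose libraries overlapped, then BRR2A (21.2), STA1 (18.0), BRR2B (9.01), AAR2 (3.77), AT5G25230 (2.51) and PRP8B (0.708). The aar2-2 order was the same, with SNU114 at 28.3, PRP3 at 26.2, BRR2A at 22.4, STA1 at 18.3, BRR2B at 8.68, AAR2 at 2.86, AT5G25230 at 2.43 and PRP8B at 0.814 CPM per kilobase, and there the libraries of AAR2 and AT5G25230 overlapped. In WT, BRR2A (20.9) and SNU114 (19.6) overlapped, as did STA1 (14.0) and PRP3 (13.3), and AT5G25230 (0.353) and PRP8B (0.309), with AAR2 (4.78) above BRR2B (4.21) between them. Relative to WT, PRP3 thus stood above BRR2A and STA1 in both mutants, and BRR2B above AAR2.

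Some of the genes share exonic bases with a neighbour, and the library kit named in the labels does not mark strand. AAR2 overlaps AT1G66520 on the other strand over 178 bases, 8.90% of its exonic bases. That neighbour had 9.67 ± 2.23 CPM in aar2-1, 10.1 ± 1.07 CPM in aar2-2 and 9.08 ± 0.326 CPM in WT (SD, n = 3), with limma adjusted p-values of 0.764 and 0.507. BRR2B overlaps AT2G42280 on the other strand over 2.16% of its exonic bases; the neighbour's log2 fold changes were -0.40 and -0.15 (limma adjusted p-values of 0.00697 and 0.205), opposite in sign to those of BRR2B. BRR2A shares 0.487% with AT1G20950 on its own strand, which was lower in both mutants at 40.9 ± 3.24 and 43.9 ± 1.17 CPM in aar2-1 and aar2-2 and 53.5 ± 3.34 CPM in WT (limma adjusted p-values of 0.00602 and 0.0256). PRP3 shares 1.98% with AT1G28070 on its own strand, which had 3.19 ± 0.313, 3.48 ± 0.360 and 3.79 ± 0.307 CPM in the same order (limma adjusted p-values of 0.205 and 0.549). PRP8B shares 0.584% with AT4G38781, which is not among the listed genes. PRP8A, SNU114, AT5G25230, STA1 and YLS8 overlap no annotated exon.

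The 250 bases before each gene start were searched on both strands for 4 short sequences known from plant promoters. The site II element TGGGCC, which is bound by TCP transcription factors in genes of growing tissue, was present in 8 of the 10 genes, all but PRP3 and STA1, and in 15.3% of 22766 promoters of listed genes. The telo-box core AAACCCTA was present in AAR2 alone (3.69% of promoters), as was the G-box CACGTG (7.18% of promoters). The palindrome bound by SOG1, a regulator of the plant response to DNA damage, was in 0 of the 10 (9.32% of promoters). Matches are descriptions of the letters and say nothing of binding. The promoters of the most similar copies, AT5G25230 at chr5:8739295-8739544 and SNU114 at chr1:1899701-1899950 (TAIR10.1, plus strand in both), are shown because the ratio of these copies differed most from WT; capitals mark TGGGCC or its reverse complement GGCCCA.
AT5G25230: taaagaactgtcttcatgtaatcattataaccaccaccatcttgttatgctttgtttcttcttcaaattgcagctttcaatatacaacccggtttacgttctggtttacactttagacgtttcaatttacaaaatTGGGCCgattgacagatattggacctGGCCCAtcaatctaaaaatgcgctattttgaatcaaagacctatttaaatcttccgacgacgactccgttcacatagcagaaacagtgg
SNU114: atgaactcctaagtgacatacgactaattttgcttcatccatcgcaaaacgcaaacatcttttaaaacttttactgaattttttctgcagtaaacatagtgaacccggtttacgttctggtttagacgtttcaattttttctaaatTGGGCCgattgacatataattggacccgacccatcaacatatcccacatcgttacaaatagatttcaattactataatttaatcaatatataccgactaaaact
The element occurs at 2 places in AT5G25230 and at 1 in SNU114. The longest stretch identical in both is the 23 bases aacccggtttacgttctggttta, at chr5:8739380-8739402 and chr1:1899802-1899824. The longest shared stretch was 9 bases between the PRP8 promoters and 9 bases between the BRR2 promoters.

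Other spliceosome genes were compared in 3 lists, each reduced to codes with a splicing or snRNP name in the annotation. The lists were chosen with earlier results of these data known. Unless stated otherwise, genes were named by largest fold change among those called in both mutants. Counts and p-values of the lists therefore describe the choice. Of the U1 and U2 snRNP genes, which recognise the ends of the intron first, all 10 were tested and 6 rose in aar2-1 and 6 in aar2-2, with 0 lower, against 11.5% and 12.1% of all genes higher. The list's median log2 fold change was 0.22 in each mutant. ATO, the homologue of the U2 subunit SF3a60, rose, with 38.8 ± 1.78 CPM in aar2-1 and 43.0 ± 1.27 CPM in aar2-2, against 28.0 ± 2.39 CPM in WT (SD, n = 3; log2 fold changes 0.46 and 0.61, limma adjusted p-values 0.00265 and 0.00118). U1A rose to 40.3 ± 1.93 and 40.4 ± 1.11 CPM, against 29.3 ± 1.03 CPM in WT (0.45 in each, adjusted p-values 0.00146 and 0.00197). Its exons overlap AT2G09945 on the other strand over 22.1% of their bases. PRP39, a U1 protein, rose to 101 ± 5.59 and 100.5 ± 1.13 CPM, against 83.9 ± 4.09 CPM in WT (0.26 in each, adjusted p-values 0.0131 and 0.0167). Without aar2-2 replicate 2, the number higher in aar2-2 was 2.

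Of the 11 tested genes of the Prp19 complex and the later-acting helicases, 2 rose in aar2-1 and 3 in aar2-2, with 0 lower, against 11.5% and 12.1% of all genes higher. The medians were 0.11 and 0.17, and edgeR and DESeq2 each called 2 in aar2-2. SKIP, a splicing factor that also acts in the circadian clock, rose, with 113 ± 2.81 CPM in aar2-1 and 109 ± 3.16 CPM in aar2-2, against 96.8 ± 0.966 CPM in WT (SD, n = 3; log2 fold changes 0.22 and 0.17, limma adjusted p-values 0.0132 and 0.0392). SKIP was not called in aar2-2 with edgeR or with DESeq2. AT3G18790, annotated as ISY1-like, rose to 23.3 ± 0.340 and 25.4 ± 0.896 CPM, against 20.1 ± 0.492 CPM in WT (0.20 and 0.32, adjusted p-values 0.0331 and 0.00681). The third in aar2-2, named after its values were seen, was MOS4 (0.35, adjusted p-value 0.00538; 0.17 and 0.0692 in aar2-1). The aar2-1 count was 0 without WT replicate 1 and 1 without any of WT replicates 2 and 3, aar2-1 replicates 1, 2 and 3, or aar2-2 replicate 2; the aar2-2 count was 5 without aar2-1 replicate 3. Of the 5 tested genes of the U5, U4/U6 and tri-snRNP list, closest in function to the 10 genes, limma called 0 in aar2-1 (2 at an unadjusted p under 0.05, 1 with edgeR and 0 with DESeq2) and 2 in aar2-2, against 25.1% and 21.5% of all genes. The medians were 0.15 and 0.20. Among all 14 tested codes of this list, whatever their name in the annotation, limma called 2 in aar2-1 and 7 in aar2-2, all higher. Of the 5 genes, the 2 called in aar2-2 were emb1220 (AT1G60170), the PRP31 homologue, and DOT2 (AT5G16780), a SART1-type protein. They were named after their values were seen. Their log2 fold changes in aar2-2 were 0.20 (limma adjusted p-value 0.0410) and 0.23 (limma adjusted p-value 0.0324). With edgeR and with DESeq2, DOT2 was called in aar2-2 and emb1220 was not. Exons of DOT2 overlap AT5G16770 on the other strand over 25.3% of their bases. Among the 5 genes, the aar2-2 count was 0 when any WT or aar2-2 library was left out. Their aar2-1 count was 1 without aar2-1 replicate 1.

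**Figure D4:**
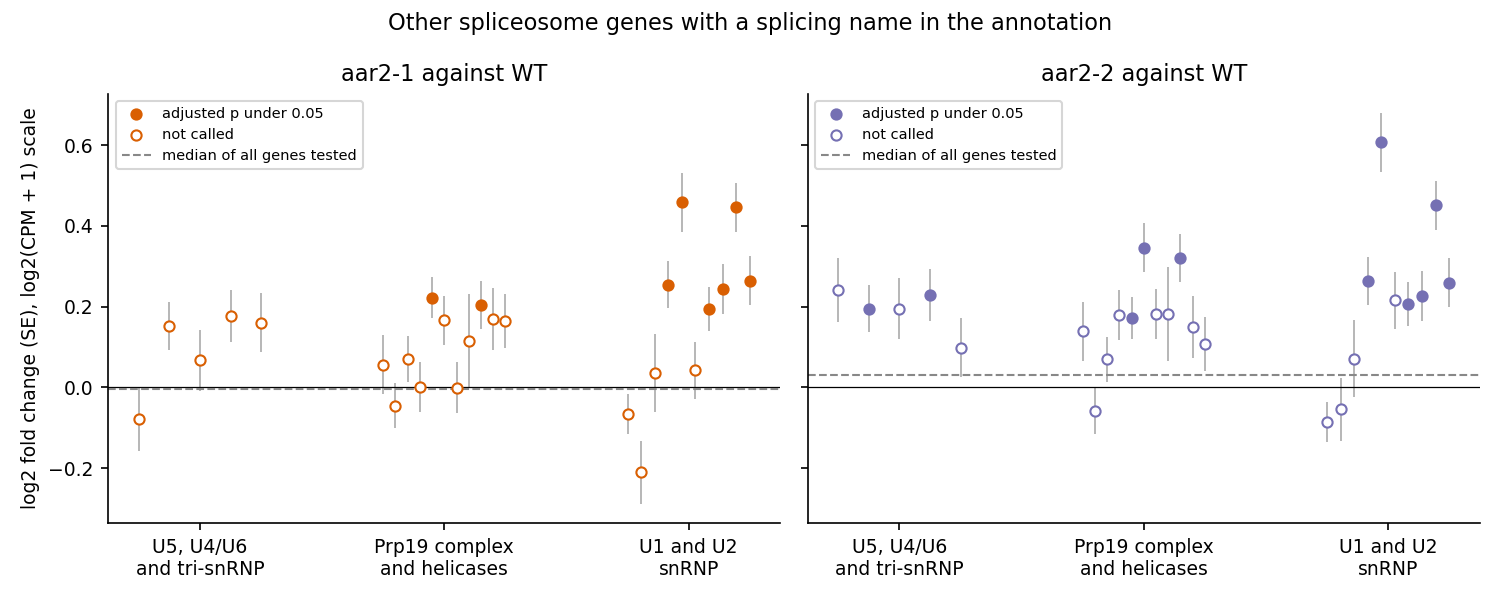
Log2 fold change with SE on the log2(CPM + 1) scale (vertical axis) of the other spliceosome genes in aar2-1 against WT (left) and aar2-2 against WT (right), by list (horizontal axis); filled points passed an adjusted p-value of 0.05 and the dashed line is the median of all genes tested. The called genes all lie above 0, from 0.17 for SKIP in aar2-2 to 0.61 for ATO in aar2-2, and the U1 and U2 list holds 6 of them in each mutant.

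The genes whose pattern over the 9 libraries was most like that of AAR2 were AT3G06390, AT3G05980 and AT5G24352. The measure was the root mean square difference of centred log2(CPM + 1), which was 0.0760, 0.124 and 0.126. AT3G06390 had 1.46 ± 0.223 CPM in aar2-1, 1.10 ± 0.196 CPM in aar2-2 and 2.16 ± 0.234 CPM in WT (SD, n = 3). All 3 had group means under 3 CPM, and lay lowest in aar2-2 and highest in WT. Among the partners, BRR2A was nearest to AAR2 at 0.313, with 7391 of the tested genes nearer than it, and AT5G25230 was the farthest at 1.25. The measure does not require a shared direction. The log2 fold changes of BRR2A, 0.02 in aar2-1 and 0.10 in aar2-2, were small and opposite in sign to those of AAR2.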

How the data were processed

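The authors deposited 1 table per library with values in CPM, per the file contents. The submitters' processing notes name TAIR10, featureCounts and DESeq2 with no role or order; the aligner, annotation and strand setting are not given in the sources used here. All values were whole multiples of the worth of 1 read (100% of values, within 0.01 reads plus a margin that grew with the count). Reads were therefore recovered. A count test was foreseen for count tables; as the unit was CPM, the main test was limma 3.58.1 in R 4.3.3 (lmFit, eBayes with trend) on log2 values of the deposited CPM plus a pseudocount of 1, restricted to 18838 genes averaging 1 CPM or more over the libraries, with all 9 libraries in 1 fit and Benjamini-Hochberg adjustment, called at 0.05. edgeR 4.0.16 (quasi-likelihood) on the recovered reads called 4860 genes in aar2-1 and 4225 in aar2-2, against 4732 and 4046 by limma; DESeq2 1.42.0 called 5183 and 4572. Groups and replicate numbers came from the sample titles. No 2 libraries of a genotype differed by as little as counting noise (lowest chi-square per degree of freedom 4.41). Whether replicates came from separate plants is not stated, so p-values measure only the spread between these libraries.

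Genes and lists were chosen with earlier results of these data known. A planned permutation test of the copy ratios is therefore not reported as a p-value, nor are p-values of the 10 genes. Named beside them were, per list, up to 3 genes in each direction called in aar2-1 and in aar2-2 and without overlap of mutant and WT libraries, exon-overlapping neighbours, and the 3 genes nearest to AAR2. Coordinates, structures, mRNA lengths (longest mRNA) and sequences come from the RefSeq TAIR10.1 genome. Alternatives were the replicate number as a block, no filter, a pseudocount of 0.1 (1 for copy ratios), TMM scaling, quantile normalization, only the 2 groups compared, edgeR, DESeq2 and leaving out each library. The procedure was also run on simulated data with few changed genes, all in aar2-1 and of equal fold. Many more genes were called in the real libraries, so the simulation does not show how the procedure performs on them.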

Additional observations from a re-analysis of the deposited data

How the results depend on the processing

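Of the 10 genes, 6 were called in aar2-1, 7 in aar2-2 and 0 between the mutants under the replicate block, no filter, the other pseudocount, TMM scaling, quantile normalization, only the 2 groups compared, edgeR and DESeq2 alike. Leaving out each library in turn gave 6 to 7, 7 and 0. Of all 18838 genes tested, the main fit called 25.1% in aar2-1, 21.5% in aar2-2 and 0.0212% between the mutants. Against WT, edgeR called 4860 in aar2-1 and 4225 in aar2-2, and DESeq2 called 5183 and 4572. The 10 genes were chosen with the values of these libraries known, so their counts describe the choice in every setting. Of the 30 log2 differences of the 10 genes, 22 kept their sign under every alternative; the 8 that did not were uncalled in all fits, and the largest of them, PRP8B in aar2-2 against aar2-1, was 0.19 with a range of -0.0087 to 0.34. The differences in log2 copy ratio, 1.16 for PRP8, 1.01 for BRR2 and 2.47 for SNU114 with both mutants against WT, ranged from 0.99 to 1.39, 0.95 to 1.05 and 2.18 to 2.89 without single libraries, and the SNU114 value was 1.65 with 1 CPM added to both copies, which shrinks ratios of low genes. Of the U5, U4/U6 and tri-snRNP list, 1 gene was called in aar2-1 with TMM scaling and 1 with edgeR, against 0, and 1 in aar2-2, against 2, with the replicate block, TMM scaling, quantile normalization, edgeR and DESeq2; without single libraries the counts were 0 to 1 and 0 to 2. Of the Prp19 and helicase list, 1 was called in aar2-1 with the replicate block and 1 with only the 2 groups compared, against 2, and 3 with TMM scaling and with edgeR. In aar2-2, against 3, 5 were called with only the 2 groups compared and 2 with the replicate block, TMM scaling, quantile normalization, edgeR and DESeq2; without single libraries the counts were 0 to 2 and 2 to 5. The U1 and U2 counts of 6 and 6 ranged from 4 to 6 and from 2 to 7. With all codes of the lists, an alternative chosen after seeing the data that tests more genes, the tri-snRNP counts were 2 and 7 and the Prp19 counts 4 and 6. Other causes of these shifts were not tested. Same-numbered libraries did not deviate together in every case (r from -0.19 to 0.52). Replicates 1 and 2 had r of both signs. For replicate 3, r was 0.22 for aar2-1 with WT, 0.26 for aar2-2 with WT and 0.52 for aar2-2 with aar2-1. Whether the numbers mark a shared batch cannot be told from these values. PRP8B and AT5G25230 in WT rest on 42 to 81 and 20 to 53 reads per library, which limits their folds.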

Other observations

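Another family of spliceosome genes with copies, the crooked neck homologues, whose yeast counterpart Clf1 belongs to the Prp19 complex, was looked at after its values were seen. These genes were in the Prp19 list but carry no splicing name in the annotation. AT5G45990 had 2.22 ± 0.336 CPM in aar2-1, 2.26 ± 0.746 CPM in aar2-2 and 0.545 ± 0.130 CPM in WT (SD, n = 3). Its log2 fold changes were 1.06 and 1.05, given without p-values because the gene was picked on these values. The WT libraries had 0.695, 0.469 and 0.472 CPM, so it passed the filter of 1 CPM only through the mutant libraries. The most abundant copy, AT5G41770, had 53.1 ± 2.27, 53.8 ± 1.70 and 49.1 ± 0.990 CPM in aar2-1, aar2-2 and WT, with limma adjusted p-values of 0.176 and 0.129. The third, AT3G13210, had 1.69 ± 0.956, 1.07 ± 0.476 and 0.684 ± 0.136 CPM in the same order. Its log2 fold changes were 0.62 and 0.28 (SE 0.24 each), also given without p-values, and limma called it in neither mutant. With 0.531, 0.794 and 0.726 CPM in the WT libraries, it too passed the filter only through the mutant libraries. Its exons overlap AT3G13220 on the other strand. Similarity of the copies and sharing of reads between them were not examined, and the difference between the copies was not tested.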
